A study of Macaca mulatta with 10 samples.

Results

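Transcripts of 8 transcription factors known for shaping the thalamus, TCF7L2, LEF1, GBX2, LHX2, ZIC1, RORA, SHOX2 and ZEB2, were followed across 5 nuclei of the adult rhesus monkey (Macaca mulatta) thalamus. Every probe set annotated to exactly 1 of these symbols was taken, which gave 19 of the 22215 probe sets tested. TCF7L2 had 6 of them, LEF1 and SHOX2 had 3 each, LHX2 and RORA had 2 each, and GBX2, ZIC1 and ZEB2 had 1 each. Micro-punches were cut from untreated adult brain, and biotin-labelled total RNA from them was read on Affymetrix arrays whose probes were designed for human transcripts. Each nucleus had 2 arrays, 10 in all, and the nuclei are labelled Ventral Thalamus, Pulvinar, Medial Thalamus, Centre Median and Anterior Thalamus. The study asked which genes mark each nucleus. No nucleus serves as a control, and each was set against the mean of the other 4 nuclei and against each of them. The labels give each nucleus an array 1 and an array 2 but not whether these are separate animals, so the p-values measure only the spread between these arrays.

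The thalamus is the main gateway of sensory and motor information to the cortex, and its nuclei differ in their inputs and targets. TCF7L2 and LEF1 are high mobility group box factors that act with beta-catenin at the end of the Wnt pathway, and in mice TCF7L2 is needed for postmitotic thalamic neurons to take on and keep their identity. GBX2, LHX2 and SHOX2 are homeobox factors. In mouse embryos GBX2 and LHX2 act in the differentiation of thalamic neurons and the growth of their axons, and SHOX2 marks thalamic neurons and is also needed for the pacemaker cells of the heart. ZIC1 and ZEB2 carry zinc fingers, and RORA is an orphan nuclear receptor. ZEB2 has a second role outside neurons, since mouse oligodendrocytes need it to form myelin.

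Values are log2(intensity + 1) of the deposited intensities, and the values of a nucleus are given as replicate 1 and then replicate 2. Levels were not compared between probe sets, whose probes bind with different strength. For each gene, the probe set with the highest average across the arrays is called its lead. SLC17A6, the vesicular glutamate transporter that defines thalamic relay neurons, read between 10.33 and 11.54 on all 10 arrays. In punched tissue, fewer cells of a type and less RNA per cell cannot be told apart.

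Replicate 2 arrays differed from replicate 1 arrays by a median of 0.23 in absolute log2 over all probe sets. The actin control is probed near both ends of its transcript, and a 3′ signal above the 5′ signal points to degraded RNA or incomplete copying. The log2 difference, called the actin signal here, was -0.09 to 1.22 in replicate 1 and 1.15 to 1.64 in replicate 2. Ventral Thalamus had the highest value of each set, at 1.22 and 1.64. XIST, a transcript of females, exceeded RPS4Y1, a gene of the Y chromosome, on 7 arrays and not on replicate 1 of Anterior Thalamus, Medial Thalamus and Ventral Thalamus. The replicate 1 arrays thus differ among themselves in this pattern, and by it they come from more than 1 animal. The replicate block spans arrays of both patterns and is not a pairing by animal. Replicate 2 of Medial Thalamus stood apart in TTR, a choroid plexus gene, at 12.19 against 7.17 to 8.41 on the other arrays. Some results for LEF1, SHOX2, GBX2, LHX2 and ZEB2 are also given without this array. The other results for Medial Thalamus, among them those of TCF7L2, RORA and the gene lists, include it. Because same-numbered arrays deviated together, each comparison was fitted both with the replicate number as a blocking term and without it, and differences within each replicate set are given beside the fits.

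Without the block, limma called 0 of the 19 probe sets in the F test over the 5 nuclei, in any comparison of a nucleus with the rest, or in any of the 10 pairs of nuclei. Each smallest adjusted p was 1. At an unadjusted p under 0.05 the F test held 3 of the 19 probe sets, 15.8%, against 0.599% of all probe sets. Among all probe sets this fit called 0% in the F test, 0.009% for Centre Median against the rest, 0% for the other nuclei against the rest, and 0% to 0.0045% for the pairs. With the replicate block, 1 probe set was called against the rest, SHOX2 in Ventral Thalamus, and 3 differences between pairs of nuclei were called, 2 for SHOX2 and 1 for ZEB2. The blocked F test called 0 of the 19, with a smallest adjusted p of 0.0563 for ZEB2. Of the 19, 9 had an unadjusted p under 0.05, 47.4% against 8.59% of all probe sets. The genes were chosen with earlier results of these data known, so the unadjusted shares of both fits are descriptive. Of all probe sets the blocked fit called 0.23% in the F test and, against the rest, 0.333% for Ventral Thalamus, 0.113% for Medial Thalamus, 0.081% for Centre Median, and 0% each for Anterior Thalamus and Pulvinar. For the pairs with Anterior Thalamus on top the blocked shares were 0.0495% against Centre Median, 0.0045% against Medial Thalamus, 0% against Pulvinar and 0.009% against Ventral Thalamus. For Centre Median they were 0.036% against Medial Thalamus, 0.0315% against Pulvinar and 0.23% against Ventral Thalamus. Medial Thalamus gave 0.0675% against Pulvinar and 0.734% against Ventral Thalamus, and Pulvinar gave 0.0045% against Ventral Thalamus. For no lead probe set did 2 nuclei that neighbour each other in the order of means pass the test in either fit.

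**Figure D1:**
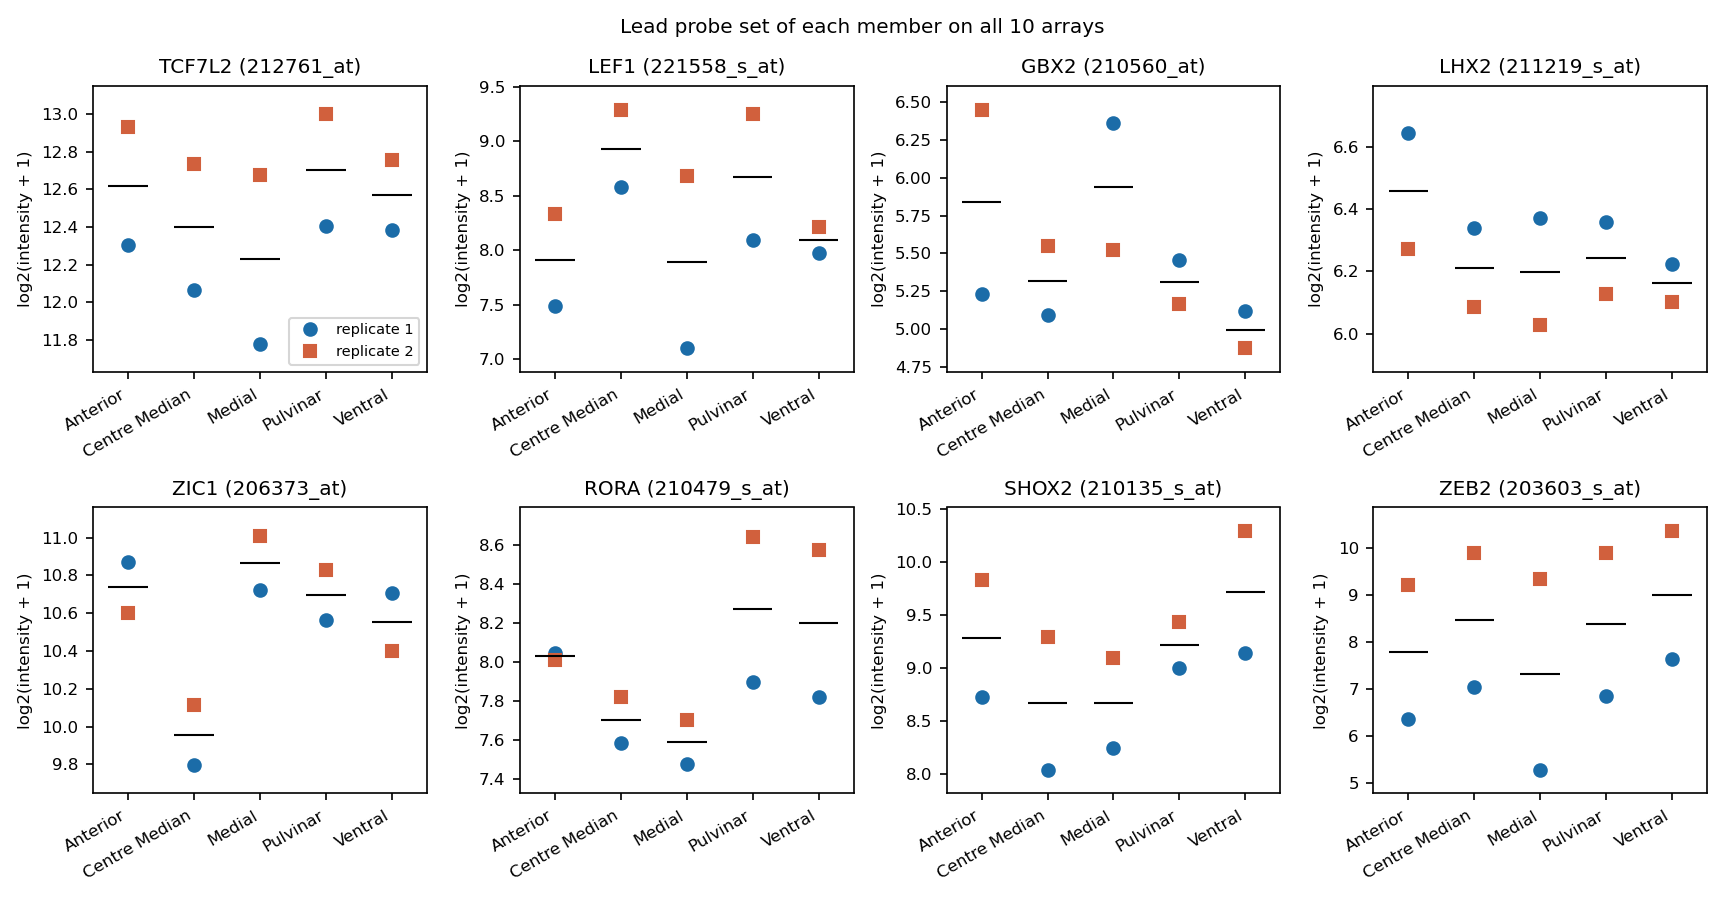
Lead probe set of each transcription factor on all 10 arrays, as log2(intensity + 1) on the vertical axis, by nucleus. Circles are replicate 1, squares are replicate 2 and lines are the means of 2 arrays. ZEB2 sits at 5.29 to 7.65 in replicate 1 and at 9.22 to 10.36 in replicate 2, while ZIC1 is lowest in Centre Median in both.

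TCF7L2 was highest in Pulvinar on most of its probe sets, without passing the test. Its lead probe set, 212761_at, read 12.30 and 12.93 in Anterior Thalamus, 12.06 and 12.74 in Centre Median, 11.78 and 12.68 in Medial Thalamus, 12.40 and 13.00 in Pulvinar, and 12.38 and 12.76 in Ventral Thalamus. Pulvinar was highest and Medial Thalamus lowest in both replicate sets, but the sets themselves did not overlap, since every replicate 2 array lay above every replicate 1 array. The means ran from 12.23 ± 0.64 in Medial Thalamus (SD, n = 2) to 12.70 ± 0.42 in Pulvinar (SD, n = 2), and these SDs hold the shift between replicate numbers. The blocked difference of Pulvinar from the rest was 0.25 (SE 0.15, adjusted p 0.999, limma), and that of Medial Thalamus was -0.34 (SE 0.15, adjusted p 0.493, limma).

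Other TCF7L2 probe sets repeated that order in part. Pulvinar was highest in both replicate sets for 5 of the 6 probe sets, which all measure products of the same gene and are not independent of each other. Probe set 212762_s_at read 10.34 and 10.84 in Anterior Thalamus, 10.14 and 10.90 in Centre Median, 10.14 and 10.50 in Medial Thalamus, 11.25 and 11.49 in Pulvinar, and 11.20 and 10.74 in Ventral Thalamus. The Pulvinar arrays lay above all others here, and their blocked difference from the rest was 0.77 (SE 0.18), 1.70-fold, with an unadjusted p of 0.00112 and an adjusted p of 0.817 in limma. Pulvinar lay above the rest by 0.37 and 0.35 in the replicate 1 and 2 sets for 216511_s_at. The exception, 212759_s_at, ran opposite in replicate number: it was 0.97 lower on average in replicate 2, where the other 5 probe sets were 0.28 to 0.63 higher. After each replicate set was centred, its correlation over the 10 arrays was -0.02 with the lead and 0.85 with 216511_s_at. The other 4 probe sets correlated with the lead at 0.19 for 216511_s_at to 0.80 for 212762_s_at.

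LEF1, which like TCF7L2 acts with beta-catenin, had its highest values in Centre Median. Its lead probe set, 221558_s_at, read 7.49 and 8.34 in Anterior Thalamus, 8.58 and 9.29 in Centre Median, 7.10 and 8.68 in Medial Thalamus, 8.10 and 9.25 in Pulvinar, and 7.97 and 8.22 in Ventral Thalamus. Centre Median was highest in both sets, by 0.91 and 0.67 over the mean of the other 4 nuclei, and Pulvinar came second in both. The replicate 1 value of Centre Median overlapped the replicate 2 values of other nuclei. The means were 8.93 ± 0.50 in Centre Median, 8.67 ± 0.81 in Pulvinar, 8.10 ± 0.17 in Ventral Thalamus, 7.91 ± 0.60 in Anterior Thalamus and 7.89 ± 1.11 in Medial Thalamus (SD, n = 2 each). With the block, Centre Median lay 0.79 above the rest (SE 0.18), 1.73-fold, at an adjusted p of 0.195 in limma. With the actin signal as a covariate in place of the block, the difference was 0.92 and its adjusted p was 0.0342 in limma. With both terms it was 0.95 (SE 0.12) and the adjusted p was 0.00356 in limma. The difference did not pass with the block and quantile normalisation (adjusted p 0.249) or 1 probe set a gene (0.165) in limma. Nor did it pass with the block split by XIST and RPS4Y1 (adjusted p 0.367, limma). Only 3 of the 37 fits run called it. Without replicate 2 of Medial Thalamus the blocked difference was 0.89, with an adjusted p of 0.0367 in limma.

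A second LEF1 probe set, 210948_s_at, showed the same order at its top: Centre Median was highest in both sets, by 0.33 and 0.35 over the other nuclei, and Ventral Thalamus was lowest in both. This probe set read near the lower end of the scale, at intensities of 35.6 to 54.2. Its blocked difference for Centre Median was 0.34 (SE 0.09, adjusted p 0.311, limma). After centring it correlated with the lead at 0.87 over the 10 arrays. The third, 221557_s_at, read between 4.97 and 5.41 on every array and correlated with the lead at 0.03.

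**Figure D2:**
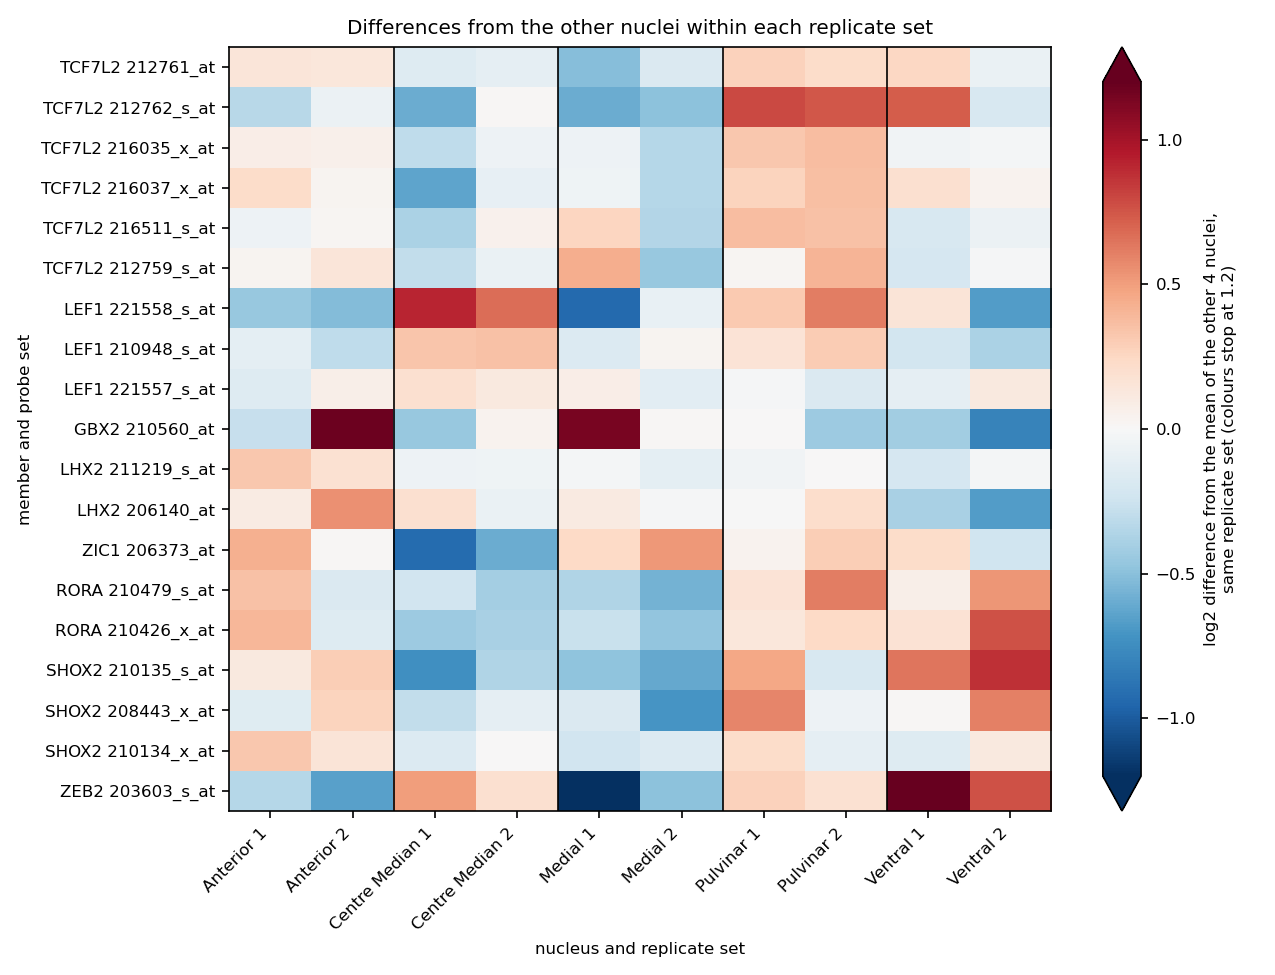
Each of the 19 probe sets as its log2 difference from the mean of the other 4 nuclei in the same replicate set, by nucleus and replicate number. Red cells are higher and blue cells lower, and colours stop at 1.2. Agreement of the 2 columns of a nucleus shows in the lead SHOX2 row and ZEB2 for Ventral Thalamus. It also shows in LEF1 and ZIC1 for Centre Median, and in most TCF7L2 rows for Pulvinar. The other SHOX2 rows differ between the 2 columns of Ventral Thalamus. GBX2 is high in a different nucleus in each set.

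Among the homeobox factors, SHOX2 gave the only call against the rest. Its lead probe set, 210135_s_at, read 9.15 and 10.29 in Ventral Thalamus, against 8.73 and 9.83 in Anterior Thalamus, 8.04 and 9.30 in Centre Median, 8.25 and 9.10 in Medial Thalamus, and 9.00 and 9.44 in Pulvinar. Ventral Thalamus was highest in each replicate set, by 0.64 and 0.87 over the mean of the others. As deposited the groups overlapped, because the replicate 2 arrays were higher by 0.96 on average. Without the block the difference from the rest was 0.76 (SE 0.46, adjusted p 1, limma). With the block it was 0.76 (SE 0.14, 95% interval 0.45 to 1.07), 1.69-fold, at an adjusted p of 0.0481 in limma. That call did not hold under quantile normalisation with the block, where the difference was 0.64 and the adjusted p 0.186 in limma, with the block and a pseudocount of 16, where they were 0.74 and 0.0521, or with the block and no variance trend, where the adjusted p was 0.0665. With the actin signal as a covariate it was also lost: the difference was 1.00 (adjusted p 0.271) with the block and 0.17 (SE 0.26, adjusted p 0.788) without it in limma. Leaving out 1 array with the block gave adjusted p-values in limma of 0.0152 to 0.508, and the call was lost without either array of Anterior Thalamus (0.117 and 0.08), Centre Median (0.101 and 0.088) or Ventral Thalamus (0.196 and 0.508).

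Between nuclei, the blocked fit called SHOX2 lower in Centre Median and in Medial Thalamus than in Ventral Thalamus. Centre Median averaged 8.67 ± 0.89 and Ventral Thalamus 9.72 ± 0.81 (SD, n = 2 each), a difference of -1.05 (blocked SE 0.18), 2.07-fold, at an adjusted p of 0.0369 with the block and 1 without it in limma. Medial Thalamus averaged 8.67 ± 0.60, a difference from Ventral Thalamus of -1.05 (blocked SE 0.18) and an adjusted p of 0.0212 with the block and 1 without it in limma. Without replicate 2 of Medial Thalamus that adjusted p was 0.057 and without replicate 1 it was 0.0628, and without replicate 1 or 2 of Ventral Thalamus it was 0.0716 or 0.195, all with the block in limma. The call between Centre Median and Ventral Thalamus was lost without either array of these nuclei or of Anterior Thalamus, at adjusted p-values of 0.0662 to 0.419 in limma. Quantile normalisation with the block gave adjusted p-values of 0.13 for Centre Median and 0.0911 for Medial Thalamus, each against Ventral Thalamus, in limma. Both calls were lost with the actin signal as a covariate. For Centre Median minus Ventral Thalamus the difference was then -1.28 (adjusted p 0.134) with the block and -0.49 (adjusted p 0.496) without it, and for Medial Thalamus minus Ventral Thalamus it was -1.34 (adjusted p 0.173) with the block and -0.33 (adjusted p 0.71) without it in limma. The Centre Median call was also lost with the block split by XIST and RPS4Y1 (adjusted p 0.0598) and with the block and no variance trend (adjusted p 0.0632) in limma. Anterior Thalamus averaged 9.28 ± 0.78 and Pulvinar 9.22 ± 0.31 (SD, n = 2 each), and neither passed a test against any other nucleus.

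The other SHOX2 probe sets gave a mixed picture. For 208443_x_at, Ventral Thalamus lay 0.02 above the rest in replicate 1 and 0.60 in replicate 2, with a blocked difference of 0.31 (SE 0.17, adjusted p 0.579, limma). Its centred values correlated with the lead at 0.82 over the 10 arrays. For 210134_x_at, Anterior Thalamus was highest in both sets, and the blocked difference of Ventral Thalamus was -0.02 (SE 0.11, 95% interval -0.26 to 0.22). The suffix _x_at marks probe sets with probes that may bind other transcripts too.

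GBX2 had 1 probe set, 210560_at, with low readings, at intensities of 28.3 to 86.4. It read 5.23 and 6.45 in Anterior Thalamus, 5.09 and 5.55 in Centre Median, 6.36 and 5.52 in Medial Thalamus, 5.46 and 5.17 in Pulvinar, and 5.12 and 4.87 in Ventral Thalamus. A single array was high in each set, Medial Thalamus in replicate 1 and Anterior Thalamus in replicate 2, while the other 8 arrays lay between 4.87 and 5.55. Medial Thalamus lay above the rest by 1.14 in replicate 1 and by 0.01 in replicate 2, and Anterior Thalamus by -0.28 and 1.17. The blocked differences of 0.57 for Medial Thalamus (SE 0.26, adjusted p 0.527) and -0.61 for Ventral Thalamus (SE 0.26, adjusted p 0.442) did not pass in limma. Without replicate 2 of Medial Thalamus, the remaining array of that nucleus lay 1.51 above Ventral Thalamus (blocked adjusted p 0.0458, limma).

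LHX2 varied little on its lead probe set and more on the other. The lead, 211219_s_at, read 6.64 and 6.27 in Anterior Thalamus, 6.34 and 6.08 in Centre Median, 6.37 and 6.03 in Medial Thalamus, 6.36 and 6.13 in Pulvinar, and 6.22 and 6.10 in Ventral Thalamus. Anterior Thalamus was highest in both sets, with a blocked difference of 0.25 (SE 0.09, adjusted p 0.839, limma). Probe set 206140_at read 4.50 and 4.30 in Ventral Thalamus, against 4.78 to 5.28 on the other 8 arrays, so Ventral Thalamus lay below every other array. These readings are near the lower end of the scale, with intensities of 21.6 and 18.8 in Ventral Thalamus and 26.4 to 37.9 elsewhere, and no fold is given. The fitted difference from the rest was -0.53, with an adjusted p of 1 without the block and 0.0553 with it (blocked SE 0.10, limma). The adjusted p was 0.109 with the block and quantile normalisation and 0.0771 with the block split by XIST and RPS4Y1 in limma. With the actin signal as a covariate it was 0.302 with the block and 0.108 without it in limma. This difference was called in 2 of the 37 fits run. It was called without replicate 1 of Anterior Thalamus (adjusted p 0.0366) and without replicate 2 of Medial Thalamus (0.0415), both with the block in limma.

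ZIC1, a zinc finger factor best known from the cerebellum and the dorsal midline of the brain, was lowest in Centre Median. Probe set 206373_at read 10.87 and 10.60 in Anterior Thalamus, 9.80 and 10.11 in Centre Median, 10.72 and 11.01 in Medial Thalamus, 10.56 and 10.83 in Pulvinar, and 10.71 and 10.40 in Ventral Thalamus. Both Centre Median arrays lay below all 8 others, and the replicate sets overlapped, with a mean shift between them of 0.06. Centre Median averaged 9.96 ± 0.22, against 10.56 ± 0.22 in Ventral Thalamus and 10.87 ± 0.20 in Medial Thalamus (SD, n = 2 each). Its difference from the rest was -0.76, 1.69-fold lower. The adjusted p was 1 without the block (SE 0.19, unadjusted p 0.00424) and 0.114 with it (SE 0.15) in limma. With the actin signal added to the block the difference was -0.71 (adjusted p 0.128, limma).

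RORA, which in mice is needed for the sensory thalamus and for cerebellar Purkinje cells, was measured by a pair of probe sets whose centred values correlated at 0.91 over the 10 arrays. The lead, 210479_s_at, read 8.04 and 8.01 in Anterior Thalamus, 7.58 and 7.82 in Centre Median, 7.47 and 7.70 in Medial Thalamus, 7.90 and 8.64 in Pulvinar, and 7.82 and 8.58 in Ventral Thalamus. Medial Thalamus was lowest in both sets, by 0.36 and 0.56 under the other nuclei, while Anterior Thalamus was highest in replicate 1 and Pulvinar in replicate 2. For 210426_x_at the Ventral Thalamus values were 7.62 and 8.44, and Centre Median was lowest in replicate 1 and Medial Thalamus in replicate 2. The blocked difference of Medial Thalamus from the rest was -0.46 for the lead (SE 0.14, adjusted p 0.287) and that of Ventral Thalamus was 0.47 for 210426_x_at (SE 0.14, adjusted p 0.224), neither passing in limma.

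ZEB2 had the widest range of nucleus means among the 19, 1.68, and also the widest shift between replicate numbers. Probe set 203603_s_at read 7.65 and 10.36 in Ventral Thalamus, against 6.37 and 9.22 in Anterior Thalamus, 7.04 and 9.90 in Centre Median, 5.29 and 9.35 in Medial Thalamus, and 6.86 and 9.89 in Pulvinar. Ventral Thalamus was highest in both sets, by 1.26 and 0.77 over the others. Medial Thalamus lay under the others by 1.69 in replicate 1 and by 0.49 in replicate 2, where Anterior Thalamus was lower still. All replicate 2 arrays lay above all replicate 1 arrays. The mean shift of 3.10 ranked 1 of the 22215 probe sets by absolute size, ahead of 2.77 for a PTP4A1 probe set. Medial Thalamus was lower than Ventral Thalamus, with means of 7.32 ± 2.87 and 9.00 ± 1.91 (SD, n = 2 each). The difference was -1.68 (blocked SE 0.25), 3.21-fold, at an adjusted p of 1 without the block and 0.0137 with it in limma. Against the rest, Ventral Thalamus at 1.01 (SE 0.20, adjusted p 0.0553) and Medial Thalamus at -1.09 (SE 0.20, adjusted p 0.0575) did not pass with the block in limma.

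Its Medial Thalamus value depended on the array used. With the block, the difference from Ventral Thalamus was -2.28 without replicate 2 of Medial Thalamus (adjusted p 5.85e-05) and -1.08 without replicate 1 (adjusted p 0.0115) in limma. Without replicate 1 or 2 of Ventral Thalamus the adjusted p was 0.0903 or 0.053 in limma. Against the rest, leaving out replicate 2 of Medial Thalamus gave 1.16 for Ventral Thalamus (adjusted p 0.000439) and -1.69 for Medial Thalamus (adjusted p 0.000424), both with the block in limma. The actin signal and ZEB2 had the same extreme arrays. The actin signal was lowest, at -0.09, in replicate 1 of Medial Thalamus, the array with the lowest ZEB2. It was highest, at 1.64, in replicate 2 of Ventral Thalamus, the array with the highest ZEB2. In replicate 1 the orders of the nuclei differed only between Anterior Thalamus and Pulvinar. In replicate 2, Centre Median had the lowest actin signal, 1.15, with ZEB2 0.20 above the rest. Anterior Thalamus had a higher actin signal there, 1.36, with ZEB2 at -0.65 from the rest. With the actin signal added to the block, Medial Thalamus minus Ventral Thalamus was -0.64 for ZEB2 (adjusted p 0.686, limma). With it in place of the block the sign turned, to 0.89 (adjusted p 0.414, limma). The part of RNA quality in the ZEB2 and SHOX2 differences was not tested beyond these fits.

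Oligodendrocyte genes went the same way as ZEB2 in Ventral Thalamus and Medial Thalamus, but not in Pulvinar. Of 9 measured markers of these myelin-forming cells, 9 lay above the rest in Ventral Thalamus, with a median difference of 0.48 against -0.02 over all probe sets, and MAG, CNP and TF were called with the block. In Medial Thalamus 1 of the 9 lay above the rest, with a median of -0.51. Pulvinar also had 1 of the 9 above the rest (median -0.19), while ZEB2 there was 0.23 above the rest with the block. Anterior Thalamus had 4 of the 9 above the rest (median -0.03), with ZEB2 at -0.50. ZEB2 was at 0.35 in Centre Median, where 8 of the 9 markers lay above the rest (median 0.08). Their summed intensity on the log2 scale was 13.99 and 14.26 in Ventral Thalamus, against 13.67 and 13.77 in Anterior Thalamus, 13.65 and 13.97 in Centre Median, 13.00 and 13.50 in Medial Thalamus, and 13.11 and 13.81 in Pulvinar. MBP, the myelin protein that defines them, read 12.22 to 13.55 on all arrays. GABA neuron markers were lowest in Medial Thalamus, and Ventral Thalamus overlapped the other nuclei. Their summed log2 intensity was 11.21 and 11.46 in Ventral Thalamus and 10.36 and 10.49 in Medial Thalamus, against 10.84 to 11.28 elsewhere. Of the 5 measured, 0 lay above the rest in Medial Thalamus (median -0.37) and 3 in Ventral Thalamus (median 0.40), and GAD1 was called for Medial Thalamus minus Ventral Thalamus, at -1.24 (adjusted p 0.0197, limma). CALB2, from the list of relay neuron markers, was called for the same pair in the other direction, at 1.91 (adjusted p 0.00182, limma). The list as a whole did not follow it. Of 6 measured relay markers, 2 lay above the rest in Medial Thalamus (median -0.06) and 2 in Ventral Thalamus (median -0.05). Their summed log2 intensity ranged from 11.77 to 12.84. Of 7 astrocyte markers 1 was called against the rest, GFAP, with a blocked difference of -1.11 in Ventral Thalamus (adjusted p 0.0475, limma). GFAP was also called for Medial Thalamus minus Ventral Thalamus, at 1.78 (blocked adjusted p 0.0137, limma). Of the 7, 3 lay above the rest in Ventral Thalamus (median -0.09) and 6 in Medial Thalamus (median 0.11). Summed markers of microglia, 7 genes, ranged only from 10.31 to 10.49 over the 10 arrays. The part of oligodendrocyte, astrocyte or neuron type content in the ZEB2 and SHOX2 values was not tested.

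**Figure D3:**
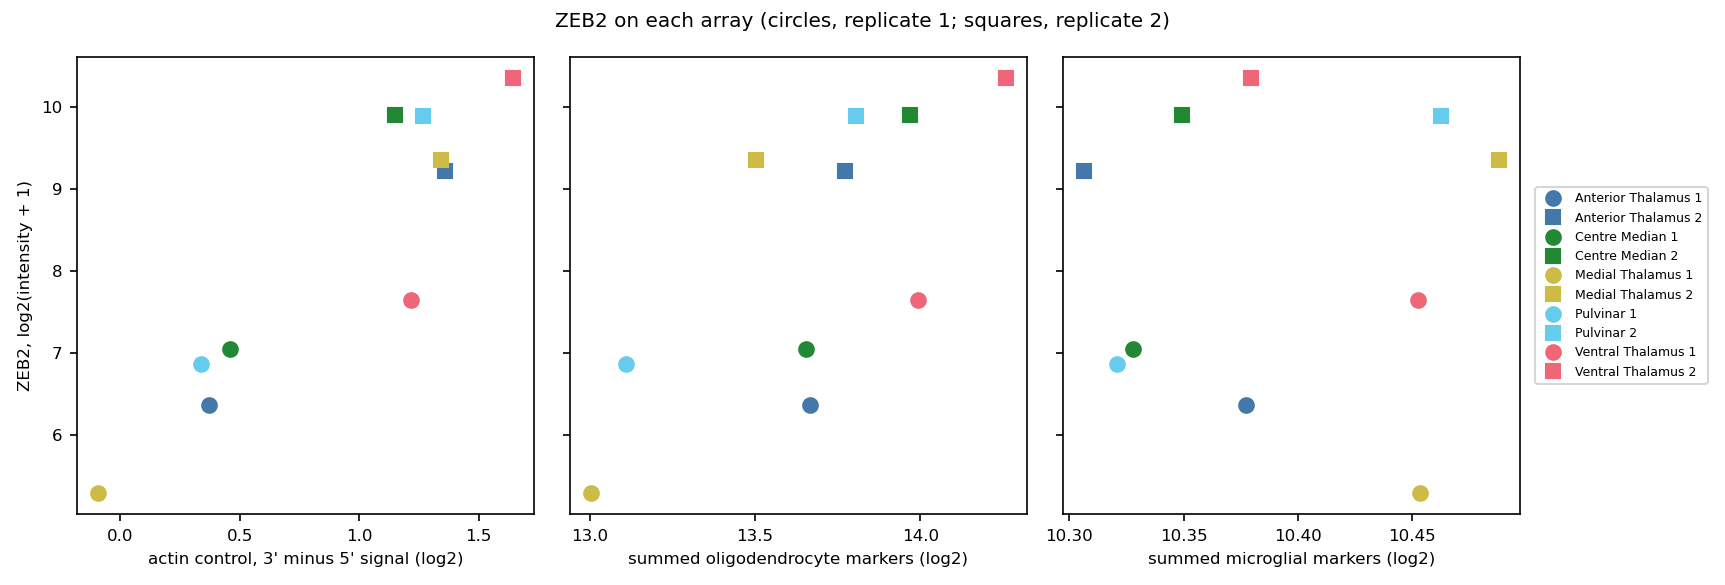
ZEB2 as log2(intensity + 1) on each array against the actin control signal, the summed oligodendrocyte markers and the summed microglial markers, all on the log2 scale. Circles are replicate 1 and squares replicate 2. The lowest ZEB2 array, replicate 1 of Medial Thalamus, has the lowest actin and oligodendrocyte values, and the highest, replicate 2 of Ventral Thalamus, has the highest of both.

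**Figure D4:**
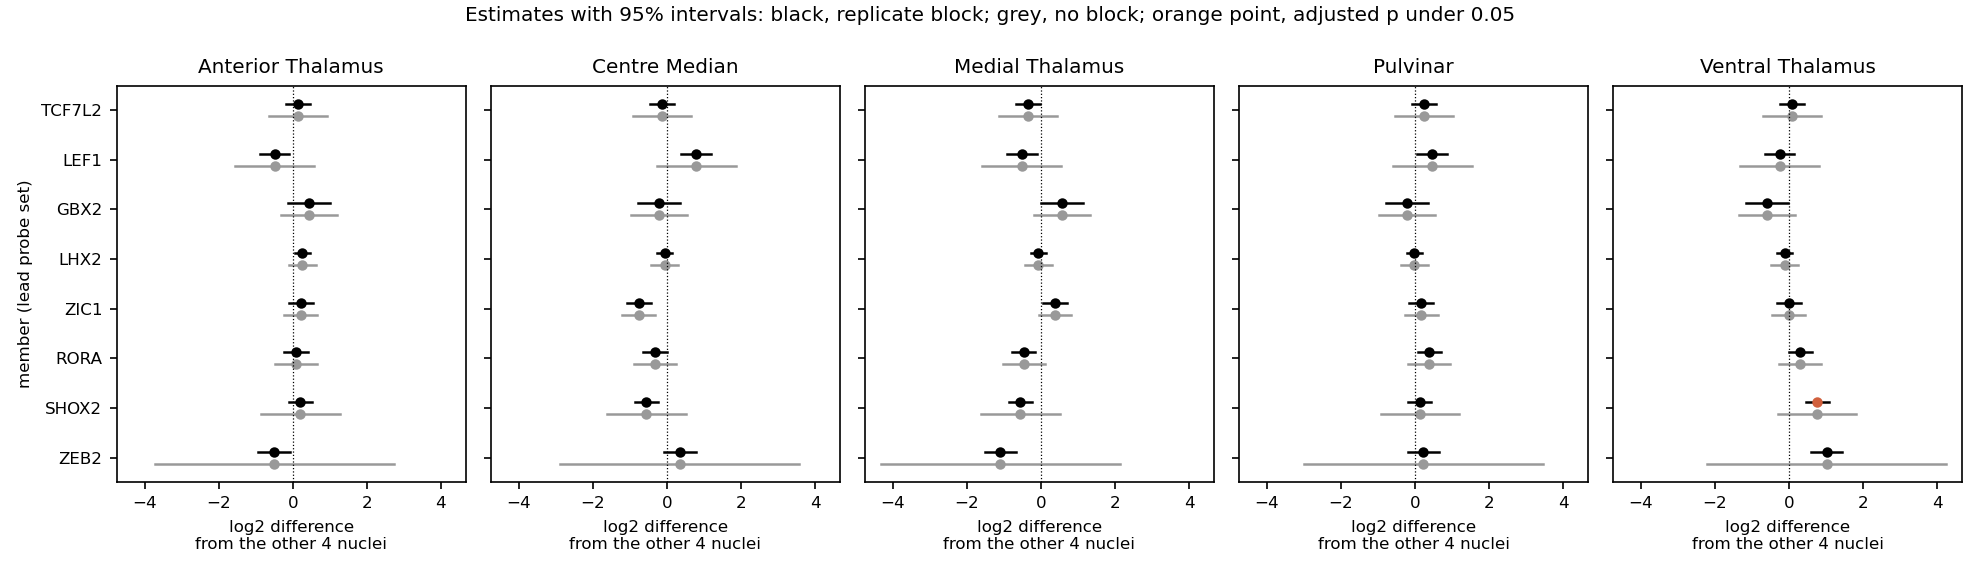
Difference of each nucleus from the mean of the other 4 nuclei for the 8 lead probe sets, on the log2 scale, with 95% intervals. Black is the fit with the replicate block and grey the fit without it. The orange point is SHOX2 in Ventral Thalamus, at 0.76. The grey interval of ZEB2 there runs from -2.22 to 4.24 and the black one from 0.58 to 1.44.

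As a group, the 19 probe sets had a median range of nucleus means of 0.60, against 0.22 over all probe sets, and the 8 lead probe sets had 0.93, against 0.23 over 11963 genes. The genes were chosen with earlier results of these data known, so the comparisons with all probe sets in this paragraph are descriptive and not a test. The same nucleus was highest in both replicate sets for 11 of the 19, and 23.5% of all probe sets shared that property. Several of the 11 are probe sets of TCF7L2 and are not independent of each other. For the lead probe sets it was 5 of 8: TCF7L2 in Pulvinar, LEF1 in Centre Median, LHX2 in Anterior Thalamus, and SHOX2 and ZEB2 in Ventral Thalamus. The same nucleus was lowest in both sets for 6 of the 19, and 20.9% of all probe sets did so. In replicate 2, 14 of the 19 probe sets were higher, as were 9390 of all 22215.

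**Figure D5:**
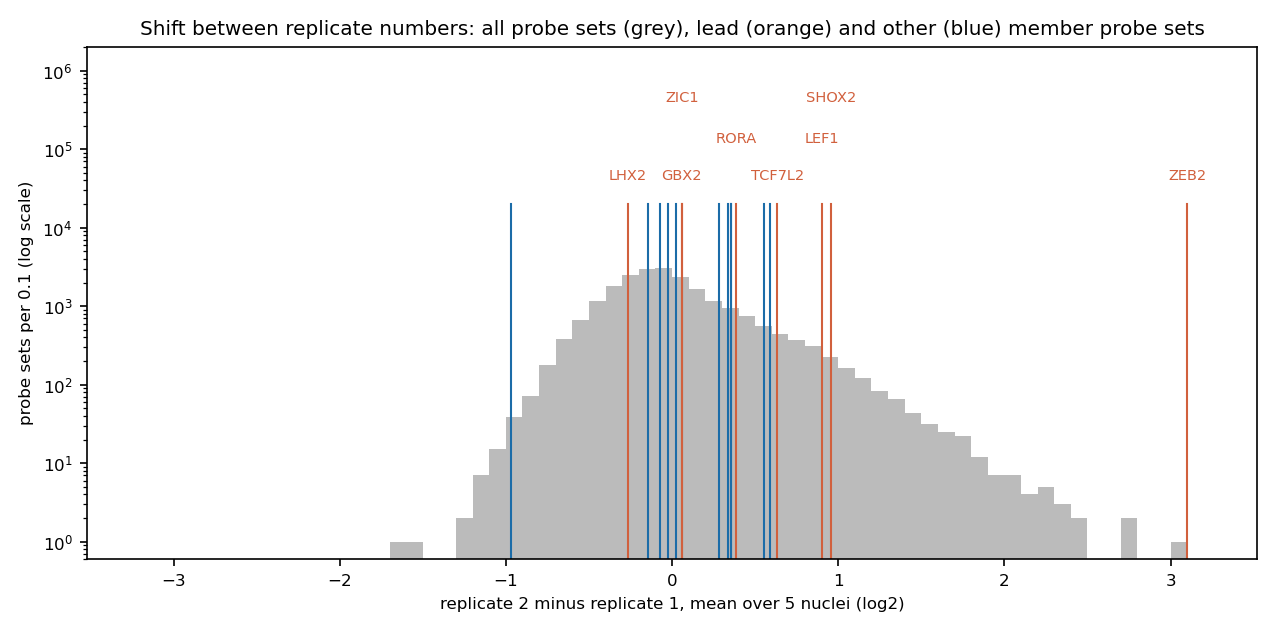
Mean of replicate 2 minus replicate 1 over the 5 nuclei, on the log2 scale, for all 22215 probe sets (grey, counts on a log axis), the lead probe sets (orange, named) and the other probe sets of the 8 genes (blue). ZEB2 sits at 3.10, at the right end of the whole distribution, and ZIC1 at 0.06, near its centre.

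The genes whose pattern was most like each lead probe set were found among 1002 or 1003 genes with a range of nucleus means of at least 0.5, by the correlation over the 10 arrays after each replicate set was centred. The arrays share RNA and replicate number, and the values are descriptive. RNF6 (0.97), TRIM36 and HIVEP2 were nearest TCF7L2. MTF2 (0.92), GNG12 and TTF1 were nearest LEF1. VWA5A (0.87), PTPRN and TPD52L1 followed GBX2, and PYY2 (0.87), KITLG and RIMS1 followed LHX2. NNAT (0.91), SLC1A6 and GNG4 were closest to ZIC1, and GABRA4 (0.89), CHST15 and CYLD to RORA. For SHOX2 these were TRIM37 (0.98), LRRC49 and DEXI. For ZEB2 they were HMGB2 (0.97), KTN1 and CRYAB, and the HMGB2 probe set had itself a shift of 2.50 between replicate numbers.

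Genes related to the 8 factors were read from lists, and without the block none of their measured genes was called in limma. Of 13 paralogs from the same families 7 were measured and 0 were called with the block. ZEB1, the paralog of ZEB2, had the widest range of nucleus means among them, 0.49, with its highest mean, 9.71, in Centre Median and its lowest, 9.23, in Medial Thalamus. GBX1 followed at 0.36. Of 19 partners and feedback targets of TCF/LEF factors 16 were measured and 0 were called. TLE4, a corepressor that binds TCF/LEF proteins, had means of 7.18 in Anterior Thalamus, 7.99 in Centre Median, 7.34 in Medial Thalamus, 7.55 in Pulvinar and 7.71 in Ventral Thalamus, and its difference in Centre Median was 0.55 (blocked adjusted p 0.278, limma). APC, which marks beta-catenin for destruction, had a range of 0.64 and its highest mean, 9.85, in Ventral Thalamus.

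Of 28 other transcription factors of thalamus, habenula or reticular nucleus 19 were measured, and 2 were called with the block. ESRRG, an orphan nuclear receptor, was higher in Ventral Thalamus by 0.58 (adjusted p 0.0481, limma). MEIS2, a homeobox factor, was lower in Medial Thalamus, at a mean of 6.83, than in Ventral Thalamus, at 7.86, a difference of -1.03 (adjusted p 0.0432, limma). ETV1 had a wider range, 1.63, with a mean of 9.92 in Centre Median and a blocked F test at an adjusted p of 0.0544 in limma. POU4F1, a habenular gene, read 7.36 on replicate 2 of Medial Thalamus and 5.56 to 6.27 on the other arrays.

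Of 7 genes that RORA activates in mouse Purkinje cells 6 were measured and PCP4 was called. PCP4, a calmodulin-binding peptide, averaged 10.50 in Centre Median, against 11.69 in Anterior Thalamus, 11.21 in Medial Thalamus and 11.47 in Pulvinar, and its highest mean was that of Ventral Thalamus. Its blocked difference was -1.09 in Centre Median (adjusted p 0.00979) and 0.78 in Ventral Thalamus (adjusted p 0.0437) in limma. It also passed for Anterior Thalamus minus Centre Median, at 1.19 (adjusted p 0.0405), and for Centre Median minus Ventral Thalamus, at -1.50 (adjusted p 0.00379, limma). ITPR1, a calcium release channel, had a difference of 0.78 in Centre Median, which did not pass (adjusted p 0.163, limma). The list's median difference in Centre Median was -0.38 against 0.00 over all probe sets, with 1 of 6 genes above the rest.

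The remaining lists held no call. Of 8 clock genes with ROR elements 6 were measured, and NPAS2 had the widest range, 0.48, followed by NR1D2 at 0.38. Of 7 pacemaker and T-type calcium channel genes linked to SHOX2 in mice 5 were measured. CACNA1G had a range of 0.51 with its highest mean, 9.03, in Anterior Thalamus, and CACNA1I one of 0.46 with its highest, 7.13, in Ventral Thalamus, and the list's median difference in Ventral Thalamus, the nucleus highest for the lead SHOX2 probe set, was 0.00. Of 13 BMP and Notch effectors tied to ZEB2 in mouse oligodendrocytes 12 were measured. In Ventral Thalamus 2 of the 12 lay above the rest, with a median of -0.19 against -0.02 over all probe sets. SMAD7, which ZEB2 activates in those mouse cells, was highest in Ventral Thalamus, at 7.17, with a difference of 0.40 (blocked adjusted p 0.125, limma). ID3 and ID4, targets of BMP signalling, had ranges of 0.66 and 0.64 and their highest means, 6.14 and 9.98, in Medial Thalamus.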

How the data were processed

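The deposited values are intensities on the linear scale that the authors made with RMA (version not given), per the submitters' processing notes. Whether the 2 replicate sets were normalised together is not given in the sources used here. Over all probe sets, controls included, intensities began at 12.0 to 12.3 in replicate 1 and at 9.49 to 9.55 in replicate 2. With the controls left out, the lowest log2(intensity + 1) of an array was 3.70 to 3.73 in either set. No detection calls were used, and precision is limited by how many arrays there are. No build is given, so no coordinates are stated.

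Of 22283 probe sets, 68 controls were left out and 22215 were tested on log2(intensity + 1) with limma 3.58.1 (lmFit, eBayes with a variance trend) in R 4.3.3. The contrasts were an F test over 5 nuclei, each nucleus against the other 4 nuclei, and 10 pairs. Benjamini-Hochberg adjustment covered all probe sets, calls were made at an adjusted p under 0.05, and intervals are 95%. For gene lists, each gene's probe set with the highest mean was used. Replicate numbers were used as a block because the shift between them correlated between nuclei at 0.750 to 0.828 in all 10 pairs. Any shift shared by all arrays of a set gives such a correlation, so it does not show a pairing by animal. The blocked fit had 4 residual degrees of freedom, against 5 without the block, and a median residual SD of 0.123, against 0.208. The script was tested on simulated data.

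The 8 genes, the lists and the alternatives were chosen with earlier results of these data known. Named genes are all probe sets of the 8 genes, the 3 most similar genes to each lead, and from each list every called gene or else the 2 with the widest range. PTP4A1, ETV1, POU4F1, ITPR1, SMAD7, SLC17A6, TTR, MBP and the markers in the ZEB2 account were named after their values were seen. Alternatives were the block, quantile normalisation, pseudocounts of 0 and 16, a filter on low means, 1 probe set a gene, no variance trend, the actin signal as a covariate, a block split by XIST and RPS4Y1, and each array left out. Figures used Python 3.11.15, numpy 2.4.6 and matplotlib 3.10.9.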

Additional observations from a re-analysis of the deposited data

How the results depend on the processing

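Beside 0 calls in every comparison without a block, the replicate block gave 1 call for Ventral Thalamus against the rest and 3 over the pairs of nuclei, and it changed no other count of calls among the 19 probe sets. With the block, pseudocounts of 0 and 16 gave 1 call for Ventral Thalamus, SHOX2 at 0 and ZEB2 in its place at 16, and 3 over the pairs, the filter on low means and 1 probe set a gene gave 2 and 3, and the split by XIST and RPS4Y1 gave 2 and 2. Blocked quantile normalisation gave 1 call over the pairs, and the block without a variance trend gave 2. In the F test 1 probe set was called with the block and a pseudocount of 16, the filter, or 1 probe set a gene. The filter with the block also gave 1 call for Medial Thalamus against the rest. The actin signal as a covariate gave 1 call each for the F test, Centre Median against the rest and the pairs, all for LEF1, and with the block 1, 1 and 2. Over all probe sets the F test called 0.23% with the block, 0.113% with blocked quantile normalisation and 0.392% with the split block. The actin covariate gave 0.0315% without the block and 0.171% with it. With the block and 1 probe set a gene it called 0.393% of 11963 genes. The share thus changes with the setting, and the counts among the 19 alone do not show a change particular to these genes. Shares for the fits with 1 array left out are not given. Leaving out 1 array gave 0 to 2 calls in the F test, 0 to 1 for Centre Median and for Medial Thalamus, 0 to 3 for Ventral Thalamus and 0 to 9 over the pairs. The highest of each range came without replicate 2 of Medial Thalamus. The ZEB2 difference of Medial Thalamus minus Ventral Thalamus turned sign with the actin covariate (0.89) and without replicate 1 of Medial Thalamus and no block (0.35), and leaving out 1 array gave -3.71 to 0.35. The cause was not tested. No setting called a probe set for Anterior Thalamus or Pulvinar against the rest. Where 1 array of a nucleus was left out, the remaining one was assumed to vary like the others. With 2 arrays a nucleus and human probes on rhesus RNA, a low signal or a missed threshold does not show that a gene is absent or alike between nuclei.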
